A study of Caenorhabditis elegans with 2 samples.

Results

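RPC-1 is the largest, catalytic subunit of RNA polymerase III, and its chromatin occupancy was measured in whole young adult Caenorhabditis elegans hermaphrodites by ChIP-seq against a GFP tag. The peaks described here are the 3140 that stand just below the list the authors kept as reproducible. They were selected on the signal of the pooled peak list alone, as ranks 1861 to 5000 of its 30000 peaks, sorted from high to low signal. They are called the sub-IDR peaks below. The 1860 peaks above them are exactly the list the authors derived by IDR, the irreproducible discovery rate. IDR is based on how alike peaks rank in replicates, but this list equals a cut on pooled signal. Single peaks on it need not rank alike in the replicates, and the sub-IDR peaks are not read as having failed such a criterion. Because pooled signal chose the sub-IDR peaks, their signal is given only as a description.

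The 2 samples are biological replicates 1 and 3 of a single group. Both are strain JK1107, which carries glp-1(q224) on chromosome III, with a transgene that expresses RPC-1 fused at its C-terminus to GFP and FLAG. The glp-1 gene encodes a Notch receptor needed for germ cell proliferation, and q224 is a temperature-sensitive allele; the labels name no untagged or wild-type group. Replicate 1 was sheared in a Bioruptor and replicate 3 with a microtip, so that replicate and shearing method cannot be told apart. The animals were whole, and occupancy in single tissues cannot be told apart. RNA polymerase III makes tRNA, 5S rRNA, U6 snRNA and a few other short RNAs. At tRNA genes the factor TFIIIC binds the A and B boxes inside the gene and brings TFIIIB, which recruits the polymerase; at U6 genes the promoter lies upstream of the gene instead. ChIP-seq against polymerase III subunits has also given weaker signal at promoters of protein-coding genes in several animals.

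Sequences from the genome around 7 summits show what kinds of site the sub-IDR peaks lie at. All are 121 bases of the plus strand of ce11 (WBcel235, RefSeq), with 60 bases to either side of the summit. In the first 6, capitals mark bases of the annotated small RNA gene or pseudogene. These 6 were the 4 sub-IDR peaks at tRNA genes, the tRNA pseudogene B0399.t2, which lies whole in its window, and the snoRNA gene with the highest signal. The last one is an intergenic site between protein-coding genes, chosen after its sequence was seen because it holds a GAGA repeat, and there the capitals mark overlapping matches to the repeat, which reads TCTCTCTCTC on the printed strand.
F52E10.t4, tRNA-Glu, chrX:16284241-16284361: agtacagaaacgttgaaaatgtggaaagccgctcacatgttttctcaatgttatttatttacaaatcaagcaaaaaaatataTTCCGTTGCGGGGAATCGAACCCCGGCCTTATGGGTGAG
M163.t1, tRNA-Lys, chrX:14486200-14486320: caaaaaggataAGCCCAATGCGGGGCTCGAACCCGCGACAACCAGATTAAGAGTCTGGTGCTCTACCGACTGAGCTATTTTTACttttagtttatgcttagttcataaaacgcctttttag
F52E10.t1, tRNA-Glu, chrX:16273778-16273898: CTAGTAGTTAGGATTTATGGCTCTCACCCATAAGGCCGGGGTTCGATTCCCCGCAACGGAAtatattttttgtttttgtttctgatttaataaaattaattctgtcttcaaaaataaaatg
F11A5.t1, tRNA-Thr, chrV:16219099-16219219: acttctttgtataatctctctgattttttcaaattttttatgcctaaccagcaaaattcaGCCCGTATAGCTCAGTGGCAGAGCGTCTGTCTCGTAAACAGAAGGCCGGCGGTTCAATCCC
B0399.t2, tRNA pseudogene, chrV:19579690-19579810: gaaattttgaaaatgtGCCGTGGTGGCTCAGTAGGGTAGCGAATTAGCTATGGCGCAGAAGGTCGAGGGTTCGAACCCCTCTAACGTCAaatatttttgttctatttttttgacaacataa
ZC395.12, snoRNA, chrIII:5267215-5267335: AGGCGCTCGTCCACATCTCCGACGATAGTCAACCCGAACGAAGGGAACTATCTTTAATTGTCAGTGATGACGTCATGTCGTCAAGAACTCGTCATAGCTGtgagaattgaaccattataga
Intergenic, chrII:10389174-10389294: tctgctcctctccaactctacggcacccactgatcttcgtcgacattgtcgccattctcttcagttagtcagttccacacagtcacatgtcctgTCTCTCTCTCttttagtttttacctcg

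The signal of the sub-IDR peaks ran from 27.56 to 54.29, with a median of 34.10, in the authors' signal units per peak. The IDR list had a median of 213.2 and a range of 54.30 to 24700, and the next 3140 peaks, ranks 5001 to 8140, had a median of 23.77. The edges were smooth. Ranks 1861, 1862 and 1863 had signals of 54.29, 54.27 and 54.27, and the IDR peaks at ranks 1858, 1859 and 1860 had 54.40, 54.31 and 54.30. At the lower end, ranks 4998 to 5000 all had 27.56, and ranks 5001, 5002 and 5003 had 27.56, 27.55 and 27.55. Single peaks beside the upper edge did not always follow it in the replicates. The IDR peak at rank 1858 ranked 7700 in replicate 1 and 29082 in replicate 3. The peak at rank 1860 had no replicate 1 summit within 250 bp, and that at rank 1862 ranked 2221 in replicate 1 and 1314 in replicate 3. Over whole sets replicate support did fall: both replicates had a summit within 250 bp at 90.9% of the IDR list and 67.9% of ranks 1861 to 2645.

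Most sub-IDR peaks lay apart from the strongest sites. No sub-IDR peak shared its interval with an IDR peak and 5 overlapped one. Of the 3140, 250 (7.96%) had their summit within 1000 bp of an IDR summit, against 173 (5.51%) of the next ranks. The median distance to an IDR summit was 13570 bp for the sub-IDR peaks and 17672 bp for the next ranks. Another sub-IDR summit lay within 1000 bp of 574 (18.3%), and the median distance to the nearest one was 4071.5 bp. Other ranks were not counted in this way, so whether this spacing is particular to the range cannot be told. The peak caller gave 3100 of the 3140 (98.7%) the same width of 244 bp, as it did 475 of the 1860 IDR peaks (25.5%). None lay in the mitochondrial genome, which held 20 IDR peaks.

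The replicates' own peak lists mostly held a summit at the same place, and replicate 1 did so more often. A replicate 1 summit lay within 250 bp of 2870 sub-IDR summits (91.4%, 95% Clopper-Pearson interval 90.4% to 92.4%), against 98.3% of the IDR list, 77.9% of the next ranks and 62.1% of the whole pooled list. A replicate 3 summit lay within 250 bp of 2010 (64%, 62.3% to 65.7%), against 92.4% of the IDR list, 51.6% of the next ranks and 46.5% of the whole list. Both replicates had one at 1810 (57.6%, 55.9% to 59.4%), against 90.9% of the IDR list, 37.9% of the next ranks and 27.8% of the whole list. Of the bases of the nuclear genome, 14.3% lie within 250 bp of a replicate 1 summit, 14.5% of a replicate 3 summit and 4.19% of both. The pooled list was called on the reads of both replicates, so these shares are no independent check of the peaks. The intervals cover counting error over peaks only, and neighbouring peaks are not independent.

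Replicate 1 alone supported 1060 sub-IDR peaks (33.8%) and replicate 3 alone 200 (6.37%). Neither list had a summit within 250 bp of 70 (2.23%), against 3 IDR peaks and 264 (8.41%) of the next ranks. One of the 70 was rank 1884 in an intron of F52D2.7, with a signal of 53.59 and the nearest summits 1831 bp away in replicate 1 and 871 bp away in replicate 3. Summits also sat closer in replicate 1, with a median distance of 18 bp, than in replicate 3, with 58.5 bp. The shares fell along the range: in 4 consecutive blocks of 785 peaks, from high to low signal, both replicates had a summit at 67.9%, 59.2%, 54% and 49.4%. Replicate 1 had one at 96.6%, 93.8%, 90.1% and 85.2%, and replicate 3 at 70.4%, 64.1%, 61.5% and 60%. Neither had one at 7, 11, 19 and 33 peaks.

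**Figure D1:**
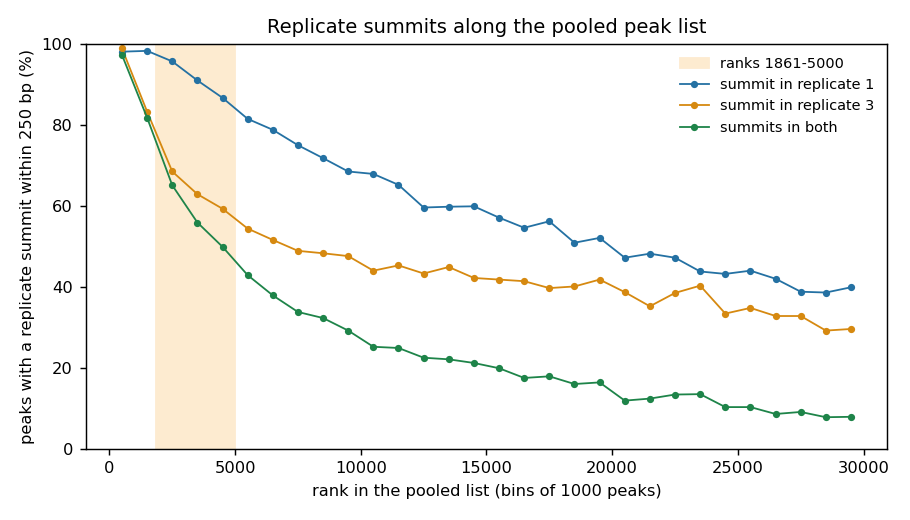
Share of pooled peaks (%, y axis) with a summit within 250 bp in replicate 1, in replicate 3 and in both, in bins of 1000 peaks by rank in the pooled list (x axis), with ranks 1861 to 5000 shaded. Across the shaded range the share with both replicates falls from 65.1% in ranks 2001 to 3000 to 49.9% in ranks 4001 to 5000, and it goes on falling below it.

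The 2 replicates ranked the same peaks differently. Among the 2870 with a replicate 1 summit, the median rank in that replicate was 3819.5. In replicate 1, 207 of them stood among its own 1860 highest peaks, 1628 at ranks 1861 to 5000 and 1035 lower. Among the 2010 with a replicate 3 summit, the median rank there was 7459.5, with 252 among its 1860 highest, 538 at ranks 1861 to 5000 and 1220 lower. Replicate 3 thus placed fewer of the peaks in the matching rank range and more of them lower. Only 353 sub-IDR peaks (11.2%) were ranked within 5000 by both replicates, 17 (0.541%) were within the first 1860 of both, and 868 (27.6%) were within 5000 in neither. Leaving out the 250 peaks near an IDR summit left 2890, of which 91.6% had a replicate 1 summit, 63.7% a replicate 3 summit and 57.5% both. Among those, 309 were within 5000 in both replicates and 9 within the first 1860.

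**Figure D2:**
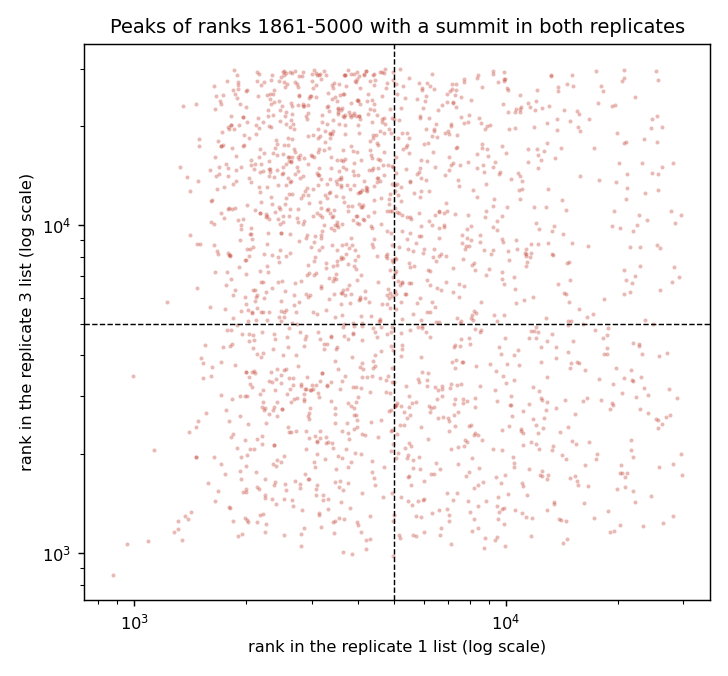
Rank in the replicate 3 list (y axis, log scale) against rank in the replicate 1 list (x axis, log scale) for the 1810 sub-IDR peaks with a summit in both. Dashed lines mark rank 5000, and the 353 peaks in the lower left part are within that rank in both lists.

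RNA polymerase III genes were nearly absent from this range. Only 5 sub-IDR summits (0.159%) lay within 250 bp of a tRNA, 5S, U6 or other RNA polymerase III gene, against 554 (29.8%) of the IDR list, 3 of the next ranks and 1.90% of the whole list. These genes with their margins make up 0.353% of the nuclear genome. Of 612 annotated tRNA genes, 4 had a sub-IDR peak, all among the 47 without an IDR peak, and 565 had an IDR peak. Of 22 U6 genes, 1 had a sub-IDR peak, one of the 13 without an IDR peak, and 9 had an IDR peak. None of the 16 5S genes in the annotation had a sub-IDR peak and 2 had an IDR peak. Of the 5 sub-IDR peaks, 4 had a replicate 1 summit within 250 bp, 3 had both, and 1 had neither.

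The 4 peaks at tRNA genes, whose sequences are printed above, did not look alike in the replicates. Signals are on each list's own scale, so the replicates are compared by rank. The tRNA-Glu gene F52E10.t4 (rank 2359, pooled signal 44.01) had signals of 19.42 in replicate 1 and 16.17 in replicate 3, at ranks 4930 and 2377. Its summit fell outside the gene, and 20 tRNA genes share its sequence, 19 of which have an IDR peak. The other tRNA-Glu gene, F52E10.t1 (rank 3747, signal 32.31), had 9.805 in replicate 1 and 17.26 in replicate 3, at ranks 13275 and 2056. No other tRNA gene has exactly its sequence, yet only 54.3% of the 32-base words around its summit occur once in the genome. Both Glu genes thus stood higher in replicate 3 than in replicate 1.

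The tRNA-Lys gene M163.t1 (rank 2474, signal 42.48) had 20.87 in replicate 1 and 5.862 in replicate 3, at ranks 4418 and 22364. The tRNA-Thr gene F11A5.t1 (rank 3761, signal 32.21) had 21.48 in replicate 1, at rank 4228, and no replicate 3 summit within 250 bp. These 2 tRNA sequences occur once each among the annotated genes, and both peaks ranked higher in replicate 1. How the authors placed reads that match several copies is not given in the sources used here, so the values at both Glu genes are uncertain.

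A further 19 sub-IDR summits were more than 250 bp but at most 500 bp from one of the RNA polymerase III genes. Of these, 15 were within 500 bp of an IDR summit. What the wider margin added thus lay mostly beside IDR peaks.

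Peaks also lay at tRNA pseudogenes, sequences that resemble tRNA genes but are annotated as inactive. Of 209, 10 had a sub-IDR peak, against 27 with an IDR peak and 5 in the next ranks. By summits, tRNA pseudogenes held 0.318% of the sub-IDR peaks, 1.4% of the IDR list, 0.159% of the next ranks, 0.213% of the whole list and 0.111% of the genome. Among those without an IDR peak, 10 of 182 pseudogenes (5.49%) and 4 of 47 tRNA genes (8.51%) had a sub-IDR peak. The highest was at Y59E1B.t1 (signal 50.35), which overlaps an annotated snoRNA, with 4.342 in replicate 1 and 7.515 in replicate 3, ranks 26242 and 15042. B0399.t2 (49.31) had 33.6 and 13.78, at ranks 2326 and 3556. ZK228.t1 (44.18) and F58F6.t2 (42.26) had a summit in replicate 3 only, at ranks 4134 and 2054. In all, 6 of the 10 had a replicate 1 summit, 8 a replicate 3 summit and 4 both. The B-box core GTTCGANNC, on either strand within 250 bp of the summit, was found at 8 of the 10.

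Most other small RNA genes are transcribed by RNA polymerase II or cut from its transcripts, although some worm snoRNA genes have been found bound by RNA polymerase III. Small nucleolar RNAs, which guide modification of rRNA and other RNAs, had 21 sub-IDR peaks (0.669%), against 82 (4.41%) of the IDR list, 19 of the next ranks and 0.593% of the whole list. All 21 had a replicate 1 summit and 18 had both. ZC395.12 (signal 53.77) had 45.72 in replicate 1 and 8.85 in replicate 3, with its summit within 2 bp of both. K04D7.17 (51.75) had 34.32 and 10.37, and M7.15 (50.35) had 64.59 and 7.529. D2021.6 (47.86) had 53.97 in replicate 1 and no replicate 3 summit within 250 bp. By rank these 4 stood higher in replicate 1, between 1331 and 2276, than in replicate 3.

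Precursor genes of microRNAs, short RNAs that repress mRNAs, had 21 sub-IDR peaks, and 7 of those were within 1000 bp of an IDR summit. Counting each gene, 22 of 260 (8.46%) had a sub-IDR peak, 14 (5.38%) an IDR peak and 17 (6.54%) a peak in the next ranks. By summits, miRNA genes held 0.669% of the sub-IDR peaks, 0.538% of the IDR list, 0.382% of the next ranks and 0.25% of the whole list. The highest signals were at mir-8207 (49.09), mir-75 (47.39), mir-4812 (43.96) and mir-8196.1 (43.46). Replicate 3 had no summit within 250 bp of the peaks at mir-75 and mir-8196.1. Of 67 spliceosomal and other snRNA genes without U6, 8 (11.9%) had a sub-IDR peak and 3 (4.48%) an IDR peak. They included F38E11.10 (47.7), sup-39 (46.0) and F32B5.9 (42.79), annotated as small nuclear RNAs. Spliced leader genes, whose RNA is joined to the 5′ end of many C. elegans mRNAs, had 4 sub-IDR peaks among 31 genes and 8 IDR peaks. The one with the highest signal, sls-2.1 (48.46), had its summit 208 bp from an IDR summit and ranked 955 in replicate 1 and 1067 in replicate 3. One of 12 SmY genes, which take part in spliced leader metabolism, had a sub-IDR peak and none an IDR peak. By summits, snRNA genes without U6, spliced leader, SmY and large rRNA genes held 0.414% of the sub-IDR peaks, 0.16% of the whole list and 0.0723% of the genome. All small RNA classes together held 70 sub-IDR summits (2.23%), against 682 (36.7%) of the IDR list, 42 (1.34%) of the next ranks, 3.11% of the whole list and 0.883% of the genome. The 4 blocks of the range, from high to low signal, held 29, 24, 9 and 8 of them.

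**Figure D3:**
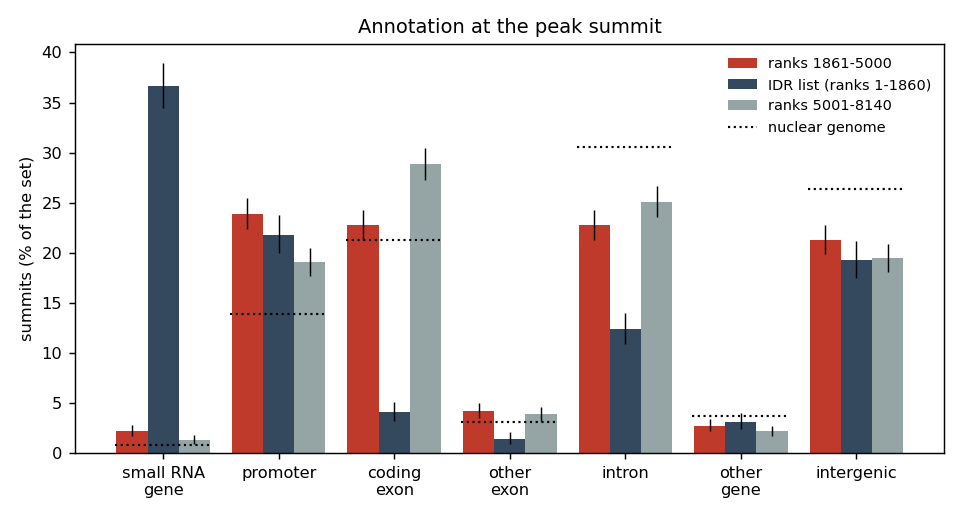
Share of summits (%, y axis) in each annotation class (x axis) for ranks 1861 to 5000, the IDR list and ranks 5001 to 8140, with 95% Clopper-Pearson intervals as error bars and dotted lines for the share of the nuclear genome. Small RNA genes hold 2.23% of the sub-IDR summits and 36.7% of the IDR summits, and coding exons hold 22.8% and 4.09%.

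With few RNA polymerase III genes in the range, the summits lay mainly at promoters, in gene bodies and between genes. Promoters, here the bases from 500 bp upstream to 250 bp downstream of an annotated 5′ end of a protein-coding gene, held 751 (23.9%, 22.4% to 25.5%). The share was 21.8% in the IDR list, 19.1% in the next ranks and 17.1% in the whole list, and 13.9% of the nuclear genome is promoter. Coding exons held 715 (22.8%, 21.3% to 24.3%), against 4.09% of the IDR list, 28.9% of the next ranks and 29.0% of the whole list, with 21.3% of the genome. Introns held 716 (22.8%, 21.3% to 24.3%), against 12.4%, 25.1% and 24.9%, with 30.6% of the genome. Intergenic sequence held 668 (21.3%, 19.9% to 22.8%), against 19.3%, 19.5% and 19.5%, with 26.4% of the genome. Gene bodies in all, exons and introns outside promoters, held 1564 (49.8%), against 18% of the IDR list, 57.9% of the next ranks and 55.0% of the genome. No test of these differences was made, since signal chose the peaks.

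The makeup shifted within the range. From the highest to the lowest block of 785 peaks, promoters held 28.3%, 25.5%, 20.1% and 21.8% of the summits. Coding exons held 15.8%, 22.4%, 24.8% and 28.0%, and intergenic sequence 24.2%, 21.7%, 21.4% and 17.8%. The lowest block was thus close to the next ranks in its shares of promoter (19.1%) and coding exon (28.9%). Replicate support differed little between the large classes: both replicates had a summit at 58.9% of the promoter peaks, 56.4% of the coding exon peaks, 57.8% of the intron peaks and 56.1% of the intergenic peaks. Of the 70 peaks with neither replicate, 11 (15.7%) were promoter summits, against 442 (24.4%) of the 1810 with both. The 70 also had a lower median signal, 30.57 against 35.11, so support and signal are not separated in this contrast.

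The promoter window lies mostly upstream of the 5′ end by definition, which by itself puts most promoter peaks upstream. Their median summit lay at -144 bp, upstream of the 5′ end, against -172.5 bp for the IDR promoter peaks and -77 bp for the next ranks. Per 100 bp, the stretch from 250 to 100 bp upstream held 152 summits and the last 100 bp before the 5′ end held 110. From 500 to 250 bp upstream there were 86.4 per 100 bp. Downstream, the first 100 bp of the gene held 99 (13.2%), in 13.4% of the window, against 5.67% of the IDR promoter peaks and 17.5% of the next ranks. Many C. elegans mRNAs are trans-spliced, so an annotated 5′ end may lie downstream of where transcription starts.

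**Figure D4:**
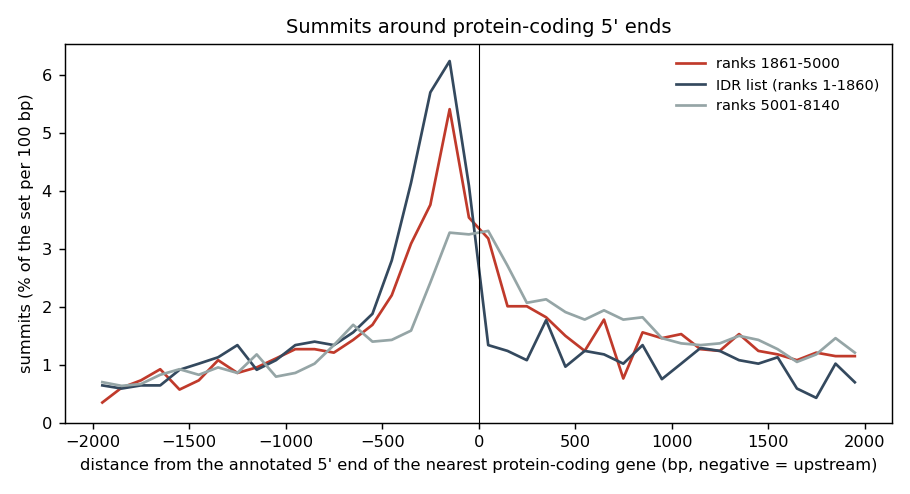
Summits per 100 bp (% of each set, y axis) by distance from the annotated 5′ end of the nearest protein-coding gene (bp, x axis, negative upstream) for ranks 1861 to 5000, the IDR list and ranks 5001 to 8140. The sub-IDR summits peak upstream of the 5′ end, as do the IDR summits, and those of ranks 5001 to 8140 form a lower, broader rise across it.

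In all, 844 of 19971 protein-coding genes (4.23%) had a sub-IDR summit in their promoter, against 508 (2.54%) with an IDR summit and 662 (3.31%) with one in the next ranks. Only 10 of the 844 also had an IDR summit in the promoter. Of the 751 peaks, 106 (14.1%) lay in more than 1 promoter. The highest signals stood at ipla-3, a calcium-independent phospholipase A2 family gene (54.27), acs-19, an acyl-CoA synthetase family gene (54.16), and the shared promoter of fbxb-85 and hex-3 (54.11). At ipla-3 the summit was 78 bp downstream of the 5′ end, with 35.16 in replicate 1 and 23.13 in replicate 3, ranks 2221 and 1314. At acs-19 it was 40 bp downstream, with 42.3 and 14.75, ranks 1831 and 2942. The fbxb-85 and hex-3 peak had 43.23 and 10.04, ranks 1796 and 8098.

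The next promoters by signal were R12C12.6 with ran-5 (53.72), F26F2.7 (53.66), the MAP kinase-activated kinase gene mak-2 (53.37), and the cofilin gene unc-60 with F53E2.2 (53.33). After these came the splicing factor genes rsp-1 and rsp-2, which share a peak (53.29), the Rab GTPase activator family gene tbc-6 (53.21) and gldi-2 (53.2). F26F2.7 had 47.41 in replicate 1 and no replicate 3 summit within 250 bp. At gldi-2 replicate 3 was the higher one by rank, 1109 against 5173 in replicate 1. Of these 10, 9 had a summit in both replicates.

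Ordered instead by the poorer of the 2 replicate ranks, the best promoter peak was at bet-2, a bromodomain gene (signal 32.04), with rank 1088 in both replicates. Its summit was 211 bp from an IDR summit, and the matching replicate 1 summit was 207 bp away; which peak that summit belongs to was not tested. The transcription factor gene jun-1 (50.5) had 63.42 in replicate 1 and 29.47 in replicate 3, ranks 1342 and 1091, and was 10063 bp from any IDR summit. The kindlin gene unc-112 (41.15) ranked 1419 and 1330, and uba-1, the gene of the ubiquitin-activating enzyme (51.61), ranked 1579 and 1633. The HMG box gene hmg-1.1 (51.41) ranked 1795 and 1383, and the galectin gene lec-6 (49.31) ranked 1951 and 1138. These 5 were over 7000 bp from any IDR summit and lay within about the first 2000 peaks of each replicate, yet under the IDR list by pooled signal. Their matching replicate 3 summits were 136 to 230 bp away, further than the median of 58.5 bp, and whether those mark the same site was not tested. The remaining 4 were at eat-16 (52.89), madf-8 with gsr-1 (43.91), F44E7.5 (46.05) and nhr-119 (49.28).

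Lists of genes by function were read against the shares of all protein-coding genes. These were 4.23% with a sub-IDR promoter peak, 2.54% with an IDR one and 3.31% with one in the next ranks. Of 78 cytosolic ribosomal protein genes, 9 (11.5%) had a sub-IDR peak and 21 (26.9%) an IDR peak. None had both, and over all genes only 10 of the 844 with a sub-IDR promoter peak did. The 9 included rpl-24 and rps-10, which share a peak (48.06), rps-13 (47.43) and rps-4 (45.72). Of 46 splicing factor and RNA-binding protein genes, 8 (17.4%) had a sub-IDR peak, 3 an IDR peak and 1 a peak in the next ranks. Besides rsp-1 and rsp-2 these were led by prp-40 (51.36) and prp-31 (40.15), which encode splicing factors. Of 24 heat shock protein genes, 4 (16.7%) had one and 7 an IDR peak, 1 gene having both. They were hsp-4 (51.6) and hsp-3 (34.46), which encode BiP chaperones of the endoplasmic reticulum, hsp-90 (50.94), whose summit was 474 bp from an IDR summit, and hsp-12.1 (32.69).

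Proteasome genes had 4 of 33 (12.1%), pbs-1 (41.33), rpn-11 (36.87), rpn-2 (35.77) and rpn-5 (30.38), against 3 with an IDR peak. Mitochondrial ribosomal protein genes had 6 of 71 (8.45%), led by mrpl-41 (40.78), mrps-35 (37.23), mrps-5 (36.88) and mrps-16 (34.72), against 3 with an IDR peak. The replicate 3 list had no summit within 250 bp of mrpl-41, mrps-35 and mrps-5. Nuclear hormone receptor genes had 19 of 269 (7.06%), led by nhr-105 (49.36), nhr-119 (49.28), nhr-32 (47.07) and nhr-8 (45.5), against 6 with an IDR peak and 13 in the next ranks. Collagen genes, which build the cuticle, had 9 of 176 (5.11%), led by col-166 (43.64), col-184 (33.13), col-170 (32.67) and col-143 (31.62), against 1 with an IDR peak and 10 in the next ranks. Histone and hcp (holocentric chromosome protein) genes had 5 of 86 (5.81%), of which his-35 and his-41 share a peak (36.39), with hcp-6 (35.24) and hil-7 (34.99) after them, against 2 with an IDR peak.

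The remaining lists had at most 4 genes each with a sub-IDR peak. Apart from the chemoreceptors they hold 40 genes or fewer, so such counts do not show a low share. Translation factor genes had 2 of 40 (5.0%), ife-2 (36.46) and eif-3.B (29.68), and aminoacyl-tRNA synthetase genes 1 of 32 (3.12%), aars-1 (30.62). None of 25 genes of RNA polymerase III subunits and factors and none of 11 of RNA polymerase II subunits had a sub-IDR peak. Vacuolar ATPase genes had 1 of 20, vha-15 (47.85). Yolk and intestinal genes had 3 of 19 (15.8%), against 2 (10.5%) in the next ranks and none with an IDR peak. The 3 were the vitellogenin genes vit-1 (51.77) and vit-6 (43.05), which encode yolk proteins, and the cathepsin B-like protease gene cpr-6 (44.83). Muscle genes had 1 of 20 (unc-60), neuronal genes 1 of 20 (rgef-1, 30.19) and germline genes none of 22. Chemoreceptor genes, a large family expressed in few neurons, had 4 of 1308 (0.306%), srx-21 (49.14), srh-16 (31.1), srw-20 (30.11) and srbc-3 (28.33), against 2 with an IDR peak and 10 in the next ranks. The srx-21 summit lay 293 bp upstream of srx-21 but 12 bp downstream of the 5′ end of fbxa-72.

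Within gene bodies, the peaks were spread over 1174 protein-coding genes, of which 929 had a single one, 245 had more, and 93 had 3 or more. The gene with the most was ncl-1 (chrIII:7719729-7738105), whose product is known to repress the synthesis of rRNA and to limit nucleolar size. It held 15 in 18.4 kb, 12 of them in introns, with signals of 27.65 to 50.72. Replicate 1 had a summit at 13 of the 15, replicate 3 at 8 and both at 6, and the gene also held 3 IDR peaks. The MAP kinase phosphatase gene vhp-1 held 9 in 17.6 kb and no IDR peak, with both replicates at 7. ell-1 held 8 with no IDR peak, and mnk-1, which encodes a MAP kinase-interacting kinase, held 8 in 12.6 kb beside 5 IDR peaks. W06H8.6 held 7 in 5.76 kb, with signals of 28.38 to 53.25. Peaks in 1 gene share their surroundings and are not independent sites.

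The coding exon peaks with the highest signals were in vhp-1 (54.15), dos-3 (54.13), cah-1 (54.09) and glt-6 (54.06). At vhp-1 replicate 1 had 41.04 and replicate 3 no summit within 250 bp, while at dos-3 they had 60.01 and 24.06, ranks 1393 and 1269. The leading intron peaks were in Y51A2D.13 (54.26), the forkhead gene fkh-7 (54), the CREB gene crh-1 (53.61) and F52D2.7 (53.59). fkh-7 ranked 1892 and 2083 in replicates 1 and 3, and crh-1 ranked 1701 and 23841. Exon sequence outside the coding part held 133 (4.24%), and 60 of these (45.1%) lay within 250 bp of an annotated 3′ end. For the same class the share was 33.3% in the IDR list (9 of 27) and 41.8% in the next ranks. Of the 715 coding exon peaks, 75 (10.5%) lay as near to a 3′ end. Promoters were taken out first and coding sequence is excluded, so the class definition itself favours 3′ ends. The difference from coding exons is therefore not read as a property of the peaks. Exon sequence outside the coding part was led by W06H8.6 (53.25), osm-11 (53.21), M01H9.3 (53.18) and the basic helix-loop-helix gene mxl-3 (52.15).

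Intergenic summits had a median distance of 1088.5 bp from the nearest protein-coding gene, against 1275 bp in the IDR list and 1184.5 bp in the next ranks. Of the 668, 187 (28.0%) were over 2000 bp away. The highest, at rank 1861 (chrIV:6336744-6336987), had 35.85 in replicate 1 and no replicate 3 summit within 250 bp. Next came rank 1863 (54.27), with 15.51 in replicate 1 and 15.7 in replicate 3, and rank 1865 (54.24), with 73.23 and 11.43. The peak whose GAGA repeat is printed above (rank 1871, signal 54.08) had 39.86 and 20.28, at ranks 1957 and 1528. Genes of other kinds, such as non-coding RNA genes and pseudogenes outside the classes above, held 87 summits (2.77%), against 3.17% of the IDR list and 2.20% of the next ranks. Their 4 highest, at ranks 1914, 1929, 1962 and 1963, had signals of 52.9, 52.41, 51.71 and 51.68, and each had a summit in both replicates.

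The sequence around the sub-IDR summits was richer in G and C than the genome and carried GAGA repeats more often than its flanks. The median GC content of the 501 bases around the summit was 39.3%, against 38.5% in the IDR list, 38.9% in the next ranks, 36.3% in flanks centred 2000 bp to either side and 35.1% in windows tiling the genome. The repeat GAGAGAGA, on either strand within 250 bp, was found at 357 (11.4%), against 7.88% of the IDR list, 7.55% of the next ranks, 4.97% of the flanks and 3.21% of genome windows. By class it was found at 18.4% of intergenic, 14.1% of intron, 9.59% of promoter and 3.36% of coding exon peaks. Around all annotated protein-coding 5′ ends it was found at 4.16%.

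The B-box core GTTCGANNC was found at 151 (4.81%), against 32.6% of the IDR list, 4.71% of the next ranks, 4.11% of the flanks and 3.76% of genome windows. At promoter peaks the share was 2.13%, and at all protein-coding 5′ ends 3.03%. GGGCGG was found at 11.7%, against 16.8% of the IDR list, 10.2% of the next ranks, 8.22% of the flanks and 7.52% of genome windows. It was found at 7 of the 13 peaks at snRNA, spliced leader and SmY genes. TATAAA was found at 35.9%, against 42% of the IDR list, 36.0% of the next ranks, 42.1% of the flanks and 44.2% of genome windows. The CREB binding motif TGACGTCA was searched after its match was seen in the printed ZC395.12 window and near the crh-1 summit. It was found at 3.22%, against 2.23% of the IDR list, 2.71% of the next ranks, 2.5% of the flanks and 2.77% of genome windows. These shares lie close together, and the windows that prompted the search are counted in the 3.22%. No motif of the 5 contains another, and a match is a run of letters and not a binding site.

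**Figure D5:**
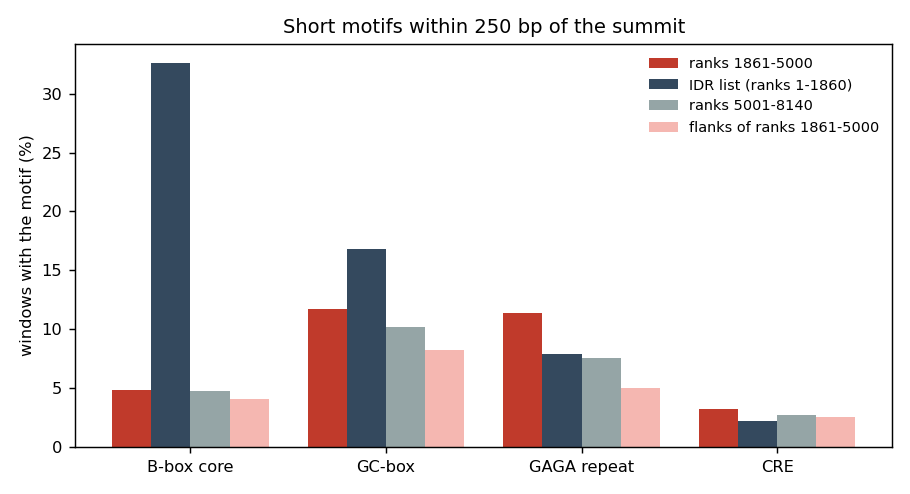
Share of 501-base windows (%, y axis) with each motif (x axis) around the summits of ranks 1861 to 5000, of the IDR list and of ranks 5001 to 8140, and in flanks 2000 bp to either side of the first set. The GAGA repeat is at 11.4% of the sub-IDR summits and the B-box core at 4.81%, against 7.88% and 32.6% of the IDR list.

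Across the chromosomes the density of sub-IDR peaks ran from 24.6 per Mb on V to 38.7 per Mb on III. In the next ranks it was 27.1 per Mb on V and 36.3 per Mb on III. The X chromosome had 36.2 per Mb and held 642 of them (20.4%), against 28.1% of the IDR list, 19.7% of the next ranks and 17.7% of the genome's bases. The share with both replicates ran from 50.9% on V to 61.6% on II and was 60.9% on X. The central part of the chromosome, without the outer 25% at each end, held 66.3% of the sub-IDR peaks on III and 50.2% on X, the highest and lowest shares of the 6 chromosomes. It held 59.6% on III and 50.8% on X in the next ranks, and 54.2% and 46.8% in the IDR list. On V the shares were 64.1% of the sub-IDR peaks and 65.2% of the next ranks.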

How the data were processed

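Anti-GFP ChIP-seq of 2 samples of 1 group gave 4 ce11 peak lists. Per the file headers, the authors called one list per sample and one on both alignments pooled, each against a control alignment, and derived the IDR list from these. Which aligner and which peak caller they used is not given in the sources used here. Each peak's deposited signal is on its own list's scale, so lists were compared by rank. Per the file headers, the authors also gave each peak a −log10 q-value, used here only as a description. The lists hold 29914 peaks for replicate 1, 30000 for replicate 3 and 30000 for the pool. They hold no read counts, so the depth is unknown, and the control alignment was not analysed here. Lists in ce10 coordinates were not used.

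Peaks were sorted by pooled signal, and ranks 1861 to 5000 were taken. Each summit was placed in the first class that applied, using the RefSeq annotation of WBcel235, the same assembly as ce11. The order was the mitochondrial genome, an RNA polymerase III gene, tRNA pseudogene, snoRNA, other small RNA or miRNA gene within 250 bp, then promoter, coding exon, other exon, intron, other gene and intergenic sequence. A replicate supported a peak where its list had a summit within 250 bp, and its highest such peak gave the rank. The peaks, gene lists and motifs were chosen with earlier results of these data known, and no test was made. Genes named are those at RNA polymerase III genes, except 1 whose values are not reported here, the 4 highest by signal in every other class and on each gene list, the 10 highest promoter peaks by signal and by poorer replicate rank, the 5 gene bodies with the most peaks, and 3 peaks on each side of both edges. Ties among gene bodies went by name. Intervals are 95% Clopper-Pearson. Python 3.11.15, numpy 2.4.6, pandas 2.3.3 and scipy 1.17.1 were used, and the counting steps were tested on simulated data. Other distances, overlap rules, promoter windows and rank ranges were tried.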

Additional observations from a re-analysis of the deposited data

How the results depend on the processing

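Of 71 recounts under other settings, 52 were within 1.5 times the reported count and 19 moved further. With summits required within 100 bp, 1101 sub-IDR peaks had both replicates and 227 had neither, and with intervals overlapping by at least 50% of the shorter 126 had neither. With only the 15000 highest peaks of each replicate list, 1203 had both and 177 had neither. In the upper part of the range alone, ranks 1861 to 3430, 1494 had a replicate 1 summit, 1056 a replicate 3 summit, 998 both and 18 neither. That part held 3 peaks at RNA polymerase III genes, 422 at promoters, 688 in gene bodies and 360 in intergenic sequence, with 137 near an IDR summit; it has fewer peaks by construction. Within 100 bp of snoRNA genes there were 13 peaks, and within 500 bp of RNA polymerase III genes 24. An IDR summit lay within 500 bp of 87 and within 2000 bp of 480. Taking the same ranks from a single replicate's own list gave 7 to 11 peaks at RNA polymerase III genes, 561 to 734 at promoters, 1562 to 1795 in gene bodies, 634 to 706 in intergenic sequence and 20 to 22 at snoRNA genes; support by the other replicate was not recounted there. Leaving out the peaks near an IDR summit, a setting chosen after seeing the data, kept all 9 counts it was tried on within 1.5 times. No paired analysis was possible because both samples belong to a single group and nothing was tested. Depth is unknown, so peaks missing from a replicate list may be below its cutoff.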

Other observations

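Non-coding RNA genes left over from the classes above, of any length and without piRNA genes, had 392 of 8050 (4.87%) with a sub-IDR summit within 250 bp. This compares with 587 (7.29%) with an IDR summit and 285 (3.54%) with one in the next ranks. Genes of piRNAs, short RNAs that silence foreign sequence in the germline, had 36 of 15363 (0.234%), against 35 with an IDR summit and 31 in the next ranks. Pseudogenes of protein-coding genes and other kinds had 38 of 1921 (1.98%), against 26 with an IDR summit and 52 in the next ranks.

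The −log10 q-value of the sub-IDR peaks ran against their signal. In the 4 blocks of 785 peaks from high to low signal, the median signal was 45.81, 36.89, 31.96 and 28.77, and the median −log10 q-value was 2.191, 2.292, 2.365 and 2.437. The next ranks had a median of 2.501, the IDR list 2.552 and the whole pooled list 1.174. The inverse run thus did not hold over the whole list.

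Over all classes, the sub-IDR peaks with the best poorer replicate rank were in atgp-2 (875 in replicate 1 and 857 in replicate 3) and at sls-2.1 (955 and 1067). Both had their summit within 250 bp of an IDR summit, at 214 and 208 bp. These were chosen after their values were seen.

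Of the sub-IDR peaks, 69 (2.20%) had under 70% of the 32-base words around the summit occurring once in the genome, against 194 (10.4%) of the IDR list, 34 (1.08%) of the next ranks and 10.1% of genome windows.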
